A study of Homo sapiens with 6 samples.

Results

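Transcription factors of the epithelial to mesenchymal transition (EMT), their epithelial counterparts and vimentin are described here as 10 genes: SNAI1, SNAI2, ZEB1, ZEB2, TWIST1, ESRP1, ESRP2, GRHL2, OVOL1 and VIM. They were chosen by name from their known roles, with earlier results of these data known. Shares over all genes are given beside counts of such genes and are no test of the set. All 10 were found by symbol among the 22091 gene IDs of the RNA sequencing counts. RNA was sequenced from 3 established lines of human hepatocellular carcinoma, MHCC97L, MHCC97H and HCCLM3. Each line gave 1 library after TGF-β1 ligand at 2.5 ng/mL for 4 h and 1 control library at 4 h without ligand. All cells were kept in DMEM with fetal bovine serum, so the controls may not have been free of serum. MHCC97L (low metastatic potential) and MHCC97H (high) share a parental tumour line, and HCCLM3 comes from lung metastases that MHCC97H formed in mice. With 1 library per line and condition, p-values for TGF-β1 rest on the spread of the response between related lines, not between cultures. That spread was moderated towards the trend over all genes.

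EMT is the switch by which epithelial cells loosen their junctions and take on a motile, mesenchymal form. Zinc finger and helix-loop-helix repressors of the SNAI, ZEB and TWIST families drive it by binding E-box motifs in epithelial genes, and GRHL2 and OVOL1 are epithelial transcription factors that oppose them. ESRP1 and ESRP2 are splicing factors that keep epithelial exons in mRNA, and VIM encodes vimentin, the intermediate filament protein of mesenchymal cells. TGF-β1 is a well-known inducer of the programme and acts through SMAD transcription factors.

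Library totals were 21257080 to 23242862 expected counts after TGF-β1 and 18485041 to 22854982 in the controls. Levels are in CPM, read counts scaled to library size. Where no read was counted, a true level of up to 3 counts is possible, or 0.129 to 0.162 CPM depending on the library. Such limits, and the counting intervals given for single lines, cover counting error only. Among hepatocellular carcinoma markers, the keratin genes KRT8 and KRT18 and the hepatocyte factor gene HNF4A were well expressed, with KRT8 at 4740 to 6570 CPM after TGF-β1 and 4290 to 5250 CPM in the controls. Of the 11 hepatocellular carcinoma markers, 3 were under 1 CPM in each MHCC97L and MHCC97H library and 6 in each HCCLM3 library. The marker GPC3 was listed at 0 in all 6 libraries and EPCAM stayed under 1 CPM. Of 12 stellate cell and fibroblast markers, 8 to 10 were under 1 CPM in each library. Their summed level was 50.8 to 205 CPM after TGF-β1 and 48.7 to 188 CPM in the controls, nearly all of it COL6A3, LUM and, in HCCLM3, COL3A1, while PDGFRA and PDGFRB stayed under 0.3 CPM and FAP was at 0 throughout. In these bulk samples, fewer cells expressing a gene and less RNA per cell cannot be told apart.

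The 10 genes fell into 2 sets by level. SNAI1, SNAI2, ZEB1, ZEB2, ESRP2 and VIM passed the filter on low counts and were tested. TWIST1, which encodes a helix-loop-helix repressor, had 0 counts in all 6 libraries. OVOL1 had 1, 0 and 1 counts after TGF-β1 in MHCC97L, MHCC97H and HCCLM3 and 0 in each control. GRHL2 had 1, 2 and 0 counts after TGF-β1 in the same order of lines, against 2, 0 and 0 in the controls. ESRP1 had 4.24, 7.43 and 5.07 expected counts after TGF-β1, against 3.12, 5.01 and 6.07 in the controls, with the groups overlapping. For TWIST1, OVOL1 and GRHL2 both conditions lay under the limit that a count of 0 allows, so no change was detectable at this depth. Of the ESRP pair, ESRP2 was thus the one whose response could be tested.

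Levels can be compared between genes only per length, here as CPM per kb of exon (all annotated exons of a gene merged). Averaged over the 6 libraries, SNAI1 stood at 10.5 CPM per kb, SNAI2 at 7.23, ZEB1 at 4.3, VIM at 2.82, ESRP2 at 1.32, ZEB2 at 0.354 and ESRP1 at 0.0481. VIM ranked 8161st of 19574 genes with a known length, which is percentile 52.0 of the 17005 genes with any count. The other intermediate filament genes KRT8 and KRT18, which encode the epithelial keratin pair, stood at 775 and 642 CPM per kb, ranks 36 and 41, and LMNA, which encodes the lamin of the nuclear envelope, stood at 263. CDH1, which encodes E-cadherin, stood at 1.44 CPM per kb, below VIM. The merged exons of ZEB2 span 25058 bases over many isoforms, a length that counts exons of every annotated isoform, so its level per length is a low estimate for shorter transcripts.

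**Figure D1:**
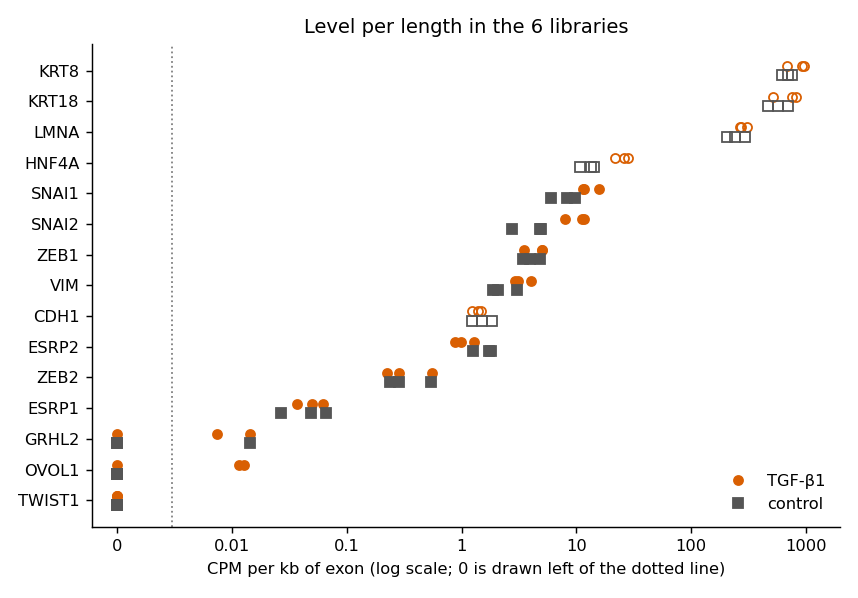
Level in CPM per kb of merged exon (log axis) for each gene, with 1 point per library, circles for TGF-β1 and squares for control; filled symbols are the 10 genes described and open symbols are genes for comparison. Values of 0 are drawn left of the dotted line. VIM lies between ZEB1 and CDH1, far below the keratin genes KRT8 and KRT18.

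The promoter table of RefSeq (GRCh38.p14) held 3 of the 10 genes, VIM, ZEB1 and ZEB2, with windows from 250 bases before to 50 bases after an annotated start. The windows were searched on both strands for the E-box of SNAI and ZEB proteins (CACCTG), a SMAD box (CAGAC), an AP-1 site (TGANTCA), a GRHL site (AACNNGTT) and a TEAD site (GGAATG). None of these motifs contains another, and among all 35116 promoter windows of that length they were found in 20.6%, 45.3%, 7.71%, 3.52% and 14.0%. VIM is shown because it rose after TGF-β1, and the ZEB1 window because it held 3 E-boxes, given in capitals. The VIM window (chr10:17227991-17228290, plus strand) and the ZEB2 window held none of the 5 motifs. Among the 7 windows of ZEB1, this one (chr10:31318966-31319265, plus strand) had the most E-boxes. Other ZEB1 windows held a further E-box, a TEAD site, SMAD boxes and a GRHL site, and some held none of the 5 motifs. The shares of all windows are for any match in a single window, so they are no measure for 3 E-boxes or for the richest of 7 windows.
VIM: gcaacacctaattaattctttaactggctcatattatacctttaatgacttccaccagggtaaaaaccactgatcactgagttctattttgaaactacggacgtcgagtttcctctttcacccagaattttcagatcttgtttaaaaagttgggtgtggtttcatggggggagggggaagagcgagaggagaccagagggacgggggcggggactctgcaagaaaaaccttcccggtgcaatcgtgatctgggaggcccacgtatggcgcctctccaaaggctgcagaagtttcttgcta
ZEB1: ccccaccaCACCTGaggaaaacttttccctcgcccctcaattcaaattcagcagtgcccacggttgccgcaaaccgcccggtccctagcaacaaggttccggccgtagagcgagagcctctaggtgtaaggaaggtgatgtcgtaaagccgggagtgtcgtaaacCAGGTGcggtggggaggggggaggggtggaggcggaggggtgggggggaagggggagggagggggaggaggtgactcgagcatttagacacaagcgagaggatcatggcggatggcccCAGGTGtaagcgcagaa
A match is a run of letters and not a measured binding site, and a window without a match says nothing about a factor acting elsewhere.

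The first comparison set TGF-β1 against control over the 3 lines. Both SNAI genes and VIM rose, ESRP2 fell, and neither ZEB gene passed the test. Of the 6 tested genes, 3 rose and 1 fell past an adjusted p of 0.05, where over all 14176 genes tested 7.78% rose and 6.64% fell (edgeR's quasi-likelihood test with cell line as a term, Benjamini-Hochberg adjustment over all genes). The median log2 change of the 6 was 0.33, against -0.003 over all genes tested.

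SNAI2, on chromosome 8 (ENSG00000019549.8, GRCh38 48917604 to 48921740, minus strand), encodes Slug, a repressor of epithelial junction genes. It stood at 39.2, 27.0 and 38.5 CPM after TGF-β1 in MHCC97L, MHCC97H and HCCLM3, against 16.8, 9.34 and 16.3 CPM in their controls. Every treated library lay above every control, including MHCC97H, the lowest line in both conditions. The mean was 34.9 ± 6.84 CPM after TGF-β1 and 14.1 ± 4.17 CPM in controls (SD, n = 3 lines each). By edgeR's quasi-likelihood test the log2 change was 1.32 (SE 0.0942, adjusted p 0.000104).

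Within each line SNAI2 more than doubled. The log2 change was 1.22 in MHCC97L (95% counting interval 1.05 to 1.40), 1.52 in MHCC97H (1.3 to 1.77) and 1.23 in HCCLM3 (1.05 to 1.43). A rise of 2-fold or more was seen in 1.27%, 1.8% and 1.31% of the genes with at least 5 CPM in either library of these lines, and SNAI2 was the only one of the 6 tested genes to reach it in any line.

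SNAI1, on chromosome 20 (ENSG00000124216.3, GRCh38 49982999 to 49988886, plus strand), encodes Snail, the founding repressor of the family and a direct repressor of CDH1. It stood at 19.2, 19.5 and 26.6 CPM after TGF-β1 in MHCC97L, MHCC97H and HCCLM3, against 14.0, 10.2 and 16.4 CPM in their controls. The treated and control libraries did not overlap. The mean was 21.8 ± 4.17 CPM after TGF-β1 and 13.5 ± 3.11 CPM in controls (SD, n = 3 lines each). The edgeR fit gave a log2 change of 0.69 (SE 0.108, adjusted p 0.0049). Within lines the log2 change was 0.46 in MHCC97L (counting interval 0.25 to 0.68), 0.93 in MHCC97H (0.70 to 1.18) and 0.70 in HCCLM3 (0.50 to 0.91). Whether the response differed between lines was not tested, since each line has 1 library per condition.

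The counts of both SNAI genes were whole numbers, and GENCODE 29 places no other gene over them. Each rose in 3 of 3 lines and kept its call when any line was left out. Without cell line as a term both calls were lost by edgeR (adjusted p 0.304 for SNAI1 and 0.193 for SNAI2).

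VIM, on chromosome 10 (ENSG00000026025.14, GRCh38 17228259 to 17237593, plus strand), stood at 15.9, 14.9 and 20.6 CPM after TGF-β1 in MHCC97L, MHCC97H and HCCLM3, against 10.7, 9.67 and 15.7 CPM in their controls. It was higher after TGF-β1 in each line, but the HCCLM3 control lay between the treated libraries of the MHCC97 lines, so the groups overlapped. The mean was 17.1 ± 3.02 CPM after TGF-β1 and 12 ± 3.21 CPM in controls (SD, n = 3 lines each), and edgeR put the log2 change at 0.53 (SE 0.0977, adjusted p 0.0102). The log2 change was 0.57 in MHCC97L (counting interval 0.34 to 0.81), 0.62 in MHCC97H (0.37 to 0.89) and 0.39 in HCCLM3 (0.18 to 0.61). Without MHCC97L the log2 change was 0.51 and the adjusted p 0.0948, in a range of 0.00152 to 0.455 over the alternatives. VIM overlaps VIM-AS1 on the opposite strand, and the labels do not say whether strand was used in counting, so reads of the antisense RNA cannot be told apart from its own.

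ESRP2, on chromosome 16 (ENSG00000103067.12, GRCh38 68229111 to 68238102, minus strand), was the epithelial member that fell. It stood at 5.51, 7.13 and 4.84 CPM after TGF-β1 in MHCC97L, MHCC97H and HCCLM3, against 9.66, 10.1 and 6.96 CPM in their controls. It was lower after TGF-β1 in each line, and the groups overlapped only through the HCCLM3 control, which lay just below the treated MHCC97H library. The mean was 5.83 ± 1.18 CPM after TGF-β1 and 8.9 ± 1.7 CPM in controls (SD, n = 3 lines each). ESRP2 fell by 0.61 on the log2 scale (SE 0.125, adjusted p 0.0147 by edgeR).

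By line the log2 change of ESRP2 was -0.80 in MHCC97L (counting interval -1.14 to -0.49), -0.50 in MHCC97H (-0.80 to -0.20) and -0.51 in HCCLM3 (-0.91 to -0.14). The call was lost by DESeq2 (adjusted p 0.0752) and without MHCC97L (log2 change -0.51, adjusted p 0.159 by edgeR), in a range of 0.00375 to 0.355 over the alternatives. Its counts were not whole and it overlaps NFATC3 on the opposite strand, so its level is uncertain.

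ZEB1, on chromosome 10 (ENSG00000148516.21, GRCh38 31318495 to 31529814, plus strand), encodes a zinc finger and homeobox repressor of CDH1 and of the miR-200 family. It stood at 43.5, 30.4 and 43.3 CPM after TGF-β1 in MHCC97L, MHCC97H and HCCLM3, against 42.0, 34.3 and 29.8 CPM in their controls. HCCLM3 was the line in which the treated library stood clearly above its control, and in MHCC97H the treated library was the lower. Over the lines the log2 change was 0.14 (95% interval -0.17 to 0.44, adjusted p 0.525 by edgeR), which did not pass. The log2 change was 0.05 in MHCC97L (counting interval -0.08 to 0.18), -0.17 in MHCC97H (-0.32 to -0.02) and 0.54 in HCCLM3 (0.39 to 0.70), and the difference between lines was not tested.

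ZEB2, on chromosome 2 (ENSG00000169554.17, GRCh38 144364364 to 144524583, minus strand), encodes SIP1, a paralogue of ZEB1 that binds SMAD proteins. It stood at 5.64, 7.13 and 13.8 CPM after TGF-β1 in MHCC97L, MHCC97H and HCCLM3, against 5.96, 7.15 and 13.5 CPM in their controls. Treated and control libraries of a line lay side by side, and the spread was between lines. The log2 change was -0.01 (95% interval -0.26 to 0.24, adjusted p 0.969 by edgeR), and its size in each line was at most 0.08. ZEB1 and ZEB2 had whole counts and overlap antisense genes, among them ZEB1-AS1 and ZEB2-AS1. On the same strand, ZEB1 overlaps the pseudogene SPTLC1P1 and ZEB2 overlaps AC009951.1.

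**Figure D2:**
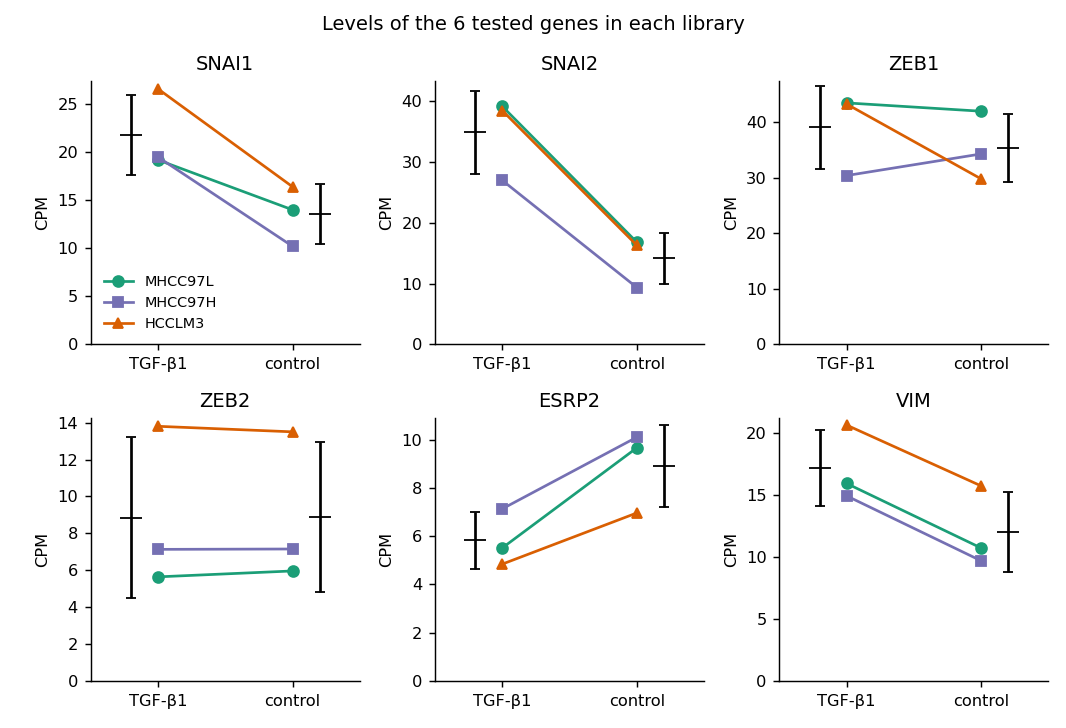
CPM of the 6 tested genes in each library, with TGF-β1 on the left and control on the right of each panel, lines joining the 2 libraries of a cell line and bars giving mean ± SD over 3 lines. SNAI1, SNAI2 and VIM are higher and ESRP2 is lower after TGF-β1 in each line, and ZEB2 is nearly flat.

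**Figure D3:**
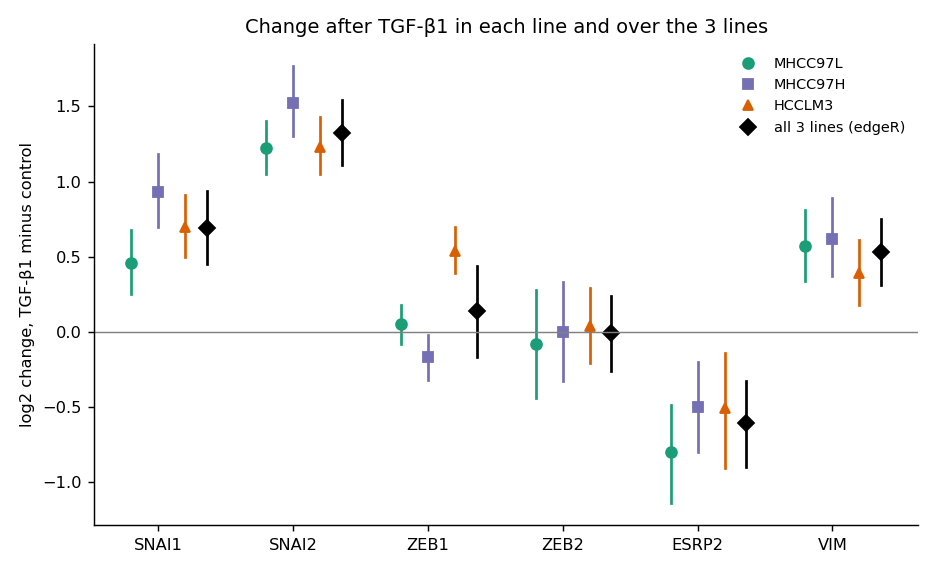
Log2 change, TGF-β1 minus control, for the 6 tested genes. Coloured points are single lines with 95% counting intervals, and black diamonds are the edgeR estimate over 3 lines with its 95% interval. SNAI2 lies at 1.22 to 1.52 in the 3 lines, and ZEB1 at 0.54 in HCCLM3 and -0.17 in MHCC97H.

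The same fit compared the lines with each other, using both libraries of each line with treatment as a term. With 1 library per line and condition, these p-values rest on the spread left after line and treatment, moderated over all genes, not on repeated cultures. A difference between lines cannot be told apart from one between their cultures. HCCLM3 had the highest ZEB2 and VIM, and MHCC97H had the lowest SNAI2. ZEB2 averaged 13.7 CPM in HCCLM3, against 7.14 CPM in MHCC97H and 5.80 CPM in MHCC97L. It was higher in HCCLM3 than in MHCC97L by 1.24 on the log2 scale (SE 0.134, adjusted p 0.0002) and than in MHCC97H by 0.94 (SE 0.131, adjusted p 0.000934), both by edgeR's quasi-likelihood test. Both ZEB2 calls held in every alternative run. The MHCC97 lines were not told apart by ZEB2, with a log2 difference, MHCC97H minus MHCC97L, of 0.30 (95% interval -0.02 to 0.62, adjusted p 0.349 by edgeR).

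VIM averaged 18.1 CPM in HCCLM3, against 12.3 CPM in MHCC97H and 13.3 CPM in MHCC97L. The log2 difference was 0.57 from MHCC97H (adjusted p 0.0074) and 0.46 from MHCC97L (adjusted p 0.0175), both by edgeR. The call against MHCC97L was lost by DESeq2 (adjusted p 0.101) and without the MHCC97L control (0.194), the HCCLM3 control (0.0536) or the treated MHCC97L library (0.148), in a range of 0.00815 to 0.194. The VIM difference between MHCC97H and MHCC97L did not pass (log2 difference -0.11, 95% interval of the fit -0.38 to 0.16).

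SNAI2 averaged 27.4 CPM in HCCLM3, 18.2 CPM in MHCC97H and 28.0 CPM in MHCC97L. It was lower in MHCC97H than in MHCC97L by 0.67 on the log2 scale (log2 difference -0.67, SE 0.115, adjusted p 0.0217 by edgeR), and HCCLM3 exceeded MHCC97H by 0.64 (adjusted p 0.00371). The difference between HCCLM3 and MHCC97L did not pass (-0.03, 95% interval of the fit -0.29 to 0.22). The call between the MHCC97 lines was lost without the MHCC97L control (adjusted p 0.258), the MHCC97H control (0.078) or the treated MHCC97L library (0.119), in a range of 0.000157 to 0.258.

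SNAI1 was higher in HCCLM3 than in MHCC97H, at 21.5 against 14.8 CPM (log2 difference 0.55, adjusted p 0.0145 by edgeR), a call lost without the MHCC97H control (0.0967). ESRP2 was lower in HCCLM3 than in MHCC97H, at 5.90 against 8.61 CPM, with a log2 difference of -0.55 (adjusted p 0.0294 by edgeR). That call was lost by DESeq2 (0.207) and without the MHCC97H control (0.0651), the HCCLM3 control (0.125) or the treated MHCC97H library (0.16). Against MHCC97L, neither SNAI1 (log2 difference 0.35, adjusted p 0.0767) nor ESRP2 (-0.35, adjusted p 0.135) passed in HCCLM3. SNAI1 passed by edgeR without the MHCC97H control (0.36, adjusted p 0.0399) or the treated MHCC97H library (0.36, adjusted p 0.0421). It did not pass without the treated MHCC97L library (0.17, adjusted p 0.691) or the MHCC97L control (0.52, adjusted p 0.0986), in a range of 0.0399 to 0.691 over the alternatives. ESRP2 passed in no alternative, and its log2 difference was -0.18 without the MHCC97L control (adjusted p 0.74 by edgeR) and -0.48 without the treated MHCC97L library (adjusted p 0.22).

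ZEB1 passed in no comparison of lines, with averages of 36.6, 32.3 and 42.8 CPM in HCCLM3, MHCC97H and MHCC97L. Without the treated HCCLM3 library it was called lower in HCCLM3 than in MHCC97L (-0.55, adjusted p 0.000936 by edgeR) and in MHCC97H than in MHCC97L (-0.41, adjusted p 0.00305). Without the HCCLM3 control it was called higher in HCCLM3 than in MHCC97H (0.46, adjusted p 0.00505) and lower in MHCC97H than in MHCC97L (-0.40, adjusted p 0.0068).

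In counts, 4 of the 6 tested genes were higher and 1 lower in HCCLM3 than in MHCC97H, beside 13.3% and 13.9% of all genes tested. In HCCLM3 against MHCC97L 2 were higher, beside 15.0% of all genes, and 0 lower, beside 14.8% (edgeR, with 0 before adjustment at p under 0.05 and 0 with either DESeq2 or limma-voom). In MHCC97H against MHCC97L 1 was lower, beside 1.08% of all genes, and 0 higher, beside 1.37% (edgeR, with 0 before adjustment and 0 with either other tool). The summed fibroblast and stellate cell markers were 205 and 188 CPM in HCCLM3, against 69.4 and 71.1 CPM in MHCC97H and 50.8 and 48.7 CPM in MHCC97L, each after TGF-β1 and in the control. Of that sum COL6A3 gave 172 and 154 CPM in HCCLM3. Of the 12 markers, 8 were under 1 CPM in each HCCLM3 library. Over the 6 libraries 4 averaged 1 CPM or more, namely COL3A1, COL6A3, DCN and LUM. The part of these markers in the higher VIM and ZEB2 of HCCLM3 was not tested.

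**Figure D4:**
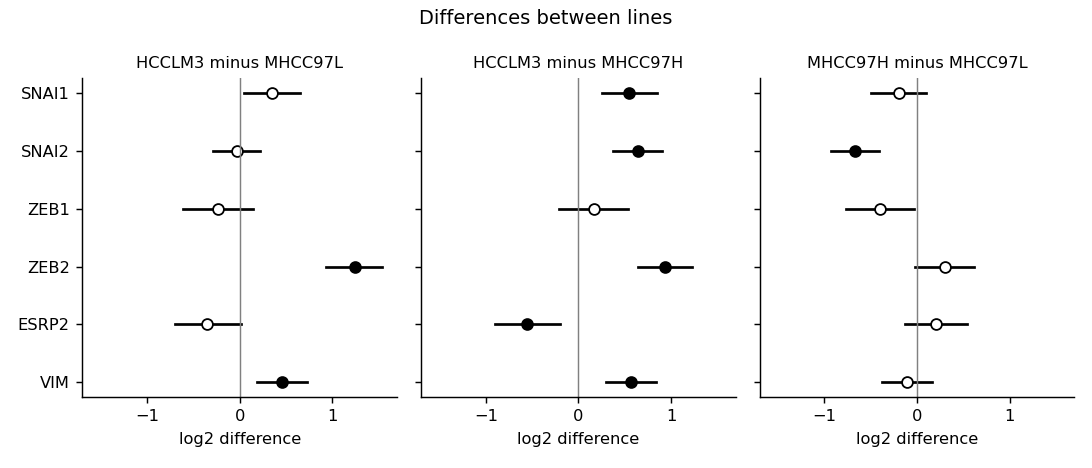
Log2 differences between cell lines for the 6 tested genes, first-named line minus second, with 95% intervals from the edgeR fit; filled points passed an adjusted p of 0.05. ZEB2 and VIM are higher in HCCLM3 in both comparisons that involve it.

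The 2 genes whose log2 CPM followed each tested gene most closely were taken over the 6 libraries from 10439 named genes with a mean of 5 CPM or more. These correlations are descriptions over 6 libraries that share lines, depth and treatment. Each is the highest of many over few libraries, so a high r is partly due to that choice. SNAI2 was most like PFN1, which encodes the actin-binding protein profilin, and VPS37B (Pearson's r 0.994 and 0.991). SNAI1 was most like MOSPD3 and DMWD (0.995 and 0.994), and VIM was most like CRACR2B and SS18L2 (0.999 and 0.997). ZEB1 followed SH3BGRL3 and GNG5 (0.990 and 0.988), ESRP2 followed TBC1D30 and the DNA demethylation enzyme gene TET3 (0.995 and 0.993), and ZEB2 followed TMEM131L and SSX1 (0.999 each). SSX1, a cancer-testis antigen gene, stood at 146 and 131 CPM in HCCLM3 with and without TGF-β1 and at most at 4.33 CPM in the other lines.

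Other transcription factors of the programme were set beside the 10 genes. Of 20 other EMT-inducing factors 13 were tested. By edgeR 2 rose and 0 fell, beside 7.78% and 6.64% of all genes tested. There were 0 falls before adjustment at p under 0.05 and 0 with either DESeq2 or limma-voom. The median log2 change was 0.20. SOX4, a TGF-β target and regulator of EMT genes, rose by 0.90 (SE 0.111), with 278 ± 49.5 CPM after TGF-β1 and 155 ± 60.8 CPM in controls. FOXC1, a forkhead factor, rose by 0.53 (SE 0.115), a call lost by DESeq2 (adjusted p 0.0752) and without MHCC97L (0.123 by edgeR). TWIST2 had no more than 1 count in a library, and FOXC2, GSC and TBXT had 0 in all 6.

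Of 18 other epithelial factors 13 were tested, with a median of -0.16. Of these 2 rose and 2 fell, beside 7.78% and 6.64% of all genes tested. HNF4A, the central hepatocyte factor, rose by 0.97 (SE 0.0707), with 184 ± 25.6 CPM after TGF-β1 and 93.9 ± 13.3 CPM in controls, and TP63 rose by 0.83. EHF, an epithelial ETS factor, fell by 0.92 on the log2 scale (SE 0.121), with 12 ± 0.841 CPM after TGF-β1 and 23.1 ± 5.50 CPM in controls. HNF4A and TP63 did not have whole counts. Nor did CLDN4, PKP2, TAGLN, TPM1, RBM47, MBNL1, ENAH, KRT8, KRT18 and KRT20 of the lists below. The same held for the markers SERPINA1, PECAM1, DCN, CD68 and LYZ. OVOL2, the closest relative of OVOL1, reached 0.0859 CPM at most, and GRHL1, a relative of GRHL2, stood at 0.484 to 2.0 CPM after TGF-β1 and 0.478 to 2.44 CPM in controls.

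Among 20 epithelial genes known as targets of SNAI and ZEB repression, 18 were tested. By edgeR 3 rose and 1 fell, beside 7.78% and 6.64% of all genes tested. The other 14 did not pass, and the median was -0.08. The claudin gene CLDN4 rose by 1.12 (SE 0.0807), the junction plaque gene JUP by 0.77 (SE 0.0893) and the membrane protease gene ST14 by 0.88 (SE 0.183). The desmosomal gene PKP2 fell by 0.59 on the log2 scale (SE 0.0984). CDH1 did not pass, at 8.58, 9.06 and 7.51 CPM after TGF-β1 in MHCC97L, MHCC97H and HCCLM3, against 9.31, 11.3 and 7.65 CPM in their controls. The calls of ST14 without MHCC97H (adjusted p 0.115) and of PKP2 without MHCC97L (0.0572) were lost by edgeR.

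Of 20 mesenchymal genes, a list that leaves out VIM, 16 were tested, with a median of 0.21. Of these 6 rose and 1 fell, beside 7.78% and 6.64% of all genes tested. ITGA5, the fibronectin receptor subunit gene, rose by 1.18 (SE 0.0776), the actin-binding gene TAGLN by 0.82, the tropomyosin gene TPM1 by 0.39 and the calponin gene CNN1 by 1.97 (SE 0.349). CNN1 averaged 1.46 ± 1.17 CPM after TGF-β1 and 0.362 ± 0.252 CPM in controls. FN1, which encodes fibronectin, fell by 0.42 on the log2 scale (SE 0.0693), with 9380 ± 466 CPM after TGF-β1 and 12600 ± 1350 CPM in controls. With DESeq2, which gave CNN1 no adjusted p, 4 of the list rose. By edgeR the calls of TPM1 (adjusted p 0.0781) and FN1 (0.152) were lost without MHCC97L, and that of TAGLN (0.0509) without HCCLM3.

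Splicing factors linked to EMT were read because ESRP1 was nearly absent. Of 16 listed 12 were tested, with a median of -0.01. Of these 1 rose and 2 fell, beside 7.78% and 6.64% of all genes tested. RBM47, an RNA-binding protein gene of epithelial cells, fell by 0.69 on the log2 scale (SE 0.068). It stood at 62.1, 75.2 and 45.2 CPM after TGF-β1 in MHCC97L, MHCC97H and HCCLM3, against 103, 114 and 75.8 CPM in their controls, so the groups did not overlap, although the treated MHCC97H and control HCCLM3 libraries were close. MBNL1 fell by 0.50 on the log2 scale and MBNL2 rose by 0.46. RBFOX2 and QKI, which favour mesenchymal exons, did not pass.

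Among 16 genes with ESRP-regulated exons 15 were tested, with a median of -0.06. Of these 1 rose and 3 fell, all by less than 0.30, beside 7.78% and 6.64% of all genes tested. ENAH rose by 0.26, and SLK, CTNND1 and ARHGEF11 fell by 0.29, 0.26 and 0.24 on the log2 scale. Gene counts do not show which exons were used. Each of these 4 calls was lost without MHCC97L (adjusted p 0.255 to 0.48 by edgeR) and without MHCC97H (0.0602 to 0.125). ENAH was also lost with library totals (0.0579), and ARHGEF11 with no filter (0.062) and by limma-voom (0.053). MBNL1 lost its call without MHCC97L (0.0517), and MBNL2 without MHCC97L (0.101), without MHCC97H (0.0672) and by DESeq2 (0.0882).

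All 22 corepressors and stability regulators of SNAI and ZEB proteins were tested, and 21 did not pass. By edgeR 1 fell and 0 rose, beside 6.64% and 7.78% of all genes tested. There were 0 rises before adjustment at p under 0.05 and 0 with either DESeq2 or limma-voom, and the median was -0.03. BTRC, the ubiquitin ligase subunit gene that marks Snail for degradation, fell by 0.39 on the log2 scale (SE 0.0991), a call lost by DESeq2 (adjusted p 0.143) and, by edgeR, without MHCC97L (0.291) or MHCC97H (0.141). Of 16 other intermediate filament genes 13 were tested, with a median of 0.22. Of these 2 rose and 1 fell, beside 7.78% and 6.64% of all genes tested. KRT8 and KRT18 rose by 0.29 and 0.26, and KRT20 fell by 0.36 on the log2 scale. The 2 rises were lost with library totals (adjusted p 0.0939 and 0.103) and without MHCC97L (0.352 and 0.362) or MHCC97H (0.239 and 0.238), that of KRT18 also with upper quartile scaling (0.0566), and the fall of KRT20 without MHCC97L (0.106), all by edgeR.

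**Figure D5:**
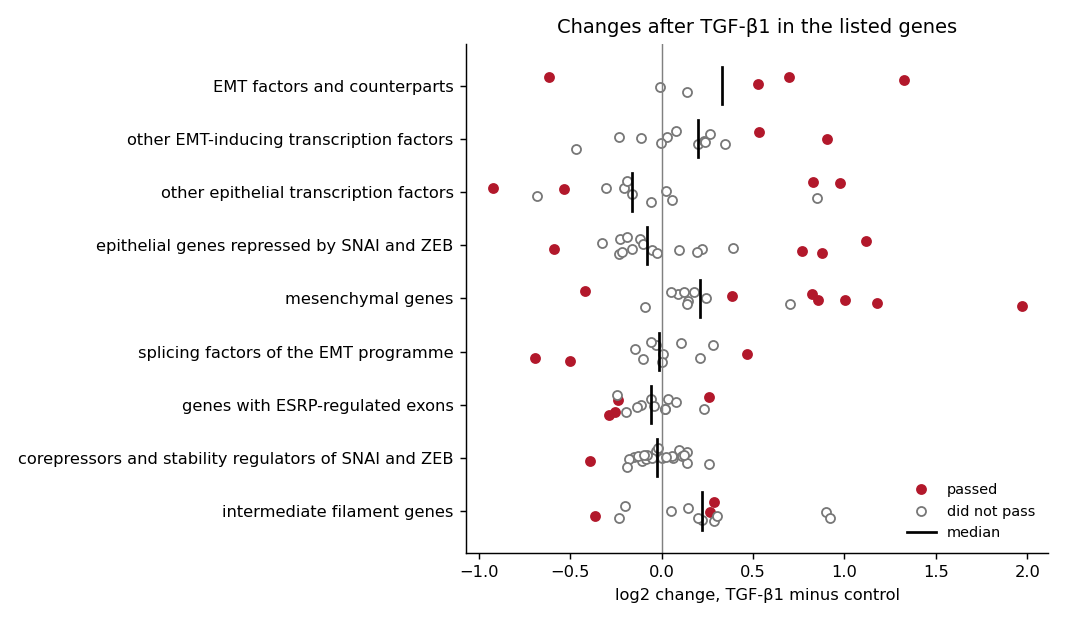
Log2 change, TGF-β1 minus control, of every tested gene in the 9 lists; filled points passed an adjusted p of 0.05 by edgeR and vertical bars are list medians. The medians lie between -0.16 and 0.33.

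Markers of other cell types were read in the same fit, by which 7.78% of all genes tested rose and 6.64% fell. Of 5 tested stellate cell and fibroblast markers 0 passed by edgeR, DESeq2 or limma-voom, and before adjustment 1 was higher and 1 lower at p under 0.05. COL6A3 averaged 87.9 ± 72.9 CPM after TGF-β1 and 82.5 ± 62.5 CPM in controls, LUM 13.7 ± 3.73 and 12.4 ± 3.98, DCN 1.7 ± 1.55 and 1.14 ± 1.18, and COL3A1 3.98 ± 6.70 and 4.94 ± 8.19. Among endothelial markers PECAM1 fell by 0.39 on the log2 scale, a call lost by DESeq2 (adjusted p 0.0971) and without MHCC97L (0.0947 by edgeR) or MHCC97H (0.168), while VWF and KDR did not pass at 2.17 ± 1.24 and 6.04 ± 4.06 CPM after TGF-β1 and 2.05 ± 1.42 and 5.46 ± 2.56 CPM in controls. Among leukocyte markers CD68, a lysosomal protein gene, averaged 168 ± 70.6 CPM after TGF-β1 and 169 ± 46.1 CPM in controls and LYZ 3.91 ± 0.628 and 3.15 ± 0.502, neither of which passed (0 of 3 tested by edgeR, DESeq2 or limma-voom and 0 before adjustment), while the pan-leukocyte gene PTPRC reached 0.131 CPM at most. Of the hepatocellular carcinoma markers, SERPINA1 rose by 0.89 and APOB fell by 0.80 on the log2 scale. By edgeR the call of SERPINA1 was lost without MHCC97L (0.0621) and that of APOB without MHCC97H (0.215), the second also by DESeq2 (0.0904).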

How the data were processed

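RNA sequencing was analysed in 6 libraries of 3 cell lines. The authors deposited expected counts per Ensembl gene, 1 file per library, of which 63.6% to 64.6% of values were whole. TopHat2 2.1.1, Cufflinks 2.2.1, Cuffdiff 1.3.0 and hg38 are named, without roles, per the submitters' processing notes; the counting tool and strand setting are not given in the sources used here. IDs were paired with symbols through the gene name table and GENCODE 29, which gave 19530 unique symbols. Counts were rounded (totals moved by at most 134), filtered with filterByExpr and scaled by TMM (factors 0.971 to 1.029). edgeR 4.0.16 in R 4.3.3 fitted cell line and treatment (quasi-likelihood, robust, 2 residual degrees of freedom), with limma 3.58.1 and DESeq2 1.42.0 as alternatives. Moderation over all genes brought the degrees of freedom of the member tests to 8.75, or 7.23 for ZEB1. SE is the log2 change over the root of F. CPM uses TMM-scaled totals. Within-line changes have a prior count of 2 and 95% exact conditional binomial intervals. The cell line pairs the libraries, and deviations from condition means correlated at 0.587, 0.456 and 0.728 in MHCC97L, MHCC97H and HCCLM3. The code was tested on simulated data. Members and gene lists were chosen with earlier results of these data known. The text names the 10 members, up to 5 called genes per other list with the smallest p, markers of other cell types with a mean of 1 CPM or more, and the 2 genes most correlated with each tested member; other genes were chosen after their values were seen. A gene that the rule names is not reported here.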

Additional observations from a re-analysis of the deposited data

Results flagged for a closer look

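ZEB1 drew attention because lines moved in opposite directions after TGF-β1 beyond counting error. Its log2 change was 0.54 in HCCLM3 (counting interval 0.39 to 0.70, with 895 counts after TGF-β1 and 561 in the control). In MHCC97H it was -0.17 (-0.32 to -0.02, with 708 counts after TGF-β1 and 719 in the control). These intervals leave out differences between cultures and error in the scaling. The difference between the lines was not tested, since each has 1 library per condition.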

How the results depend on the processing

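Of 601 recomputed values of single genes, 500 counted as unchanged, 87 lost a call, 6 gained one and 8 changed sign. These 8 were from the fits, and none passed the threshold. For the fits, unchanged meant the same direction and side of the threshold. Changes within a line have no threshold, and for them unchanged meant inside the counting interval. With library totals the ZEB2 change within HCCLM3 went from 0.04 to -0.03 and counted as unchanged. Without cell line as a term (no replicate block), 10 genes and 0 of the 6 tested members were called for TGF-β1 by edgeR, against 2044 and 4 with it, and 3 members had an unadjusted p under 0.05; ZEB2 changed by 0.01. Leaving out a line gave 624 genes (MHCC97L), 984 (MHCC97H) or 4020 (HCCLM3) and 2 to 4 members for TGF-β1, and log2 changes of 0.02 for ZEB2 without MHCC97L and -0.06 for ZEB1 without HCCLM3. Leaving out each library gave 2037 to 4621 genes and 1 to 3 members for HCCLM3 against MHCC97L (4228 and 2 with all), 2753 to 4445 and 3 to 5 for HCCLM3 against MHCC97H (3850 and 5), and 116 to 1514 and 0 to 2 for MHCC97H against MHCC97L (347 and 1). DESeq2 called 1 member in HCCLM3 against MHCC97L. In that comparison SNAI2 was at 0.04 without the MHCC97L control and 0.03 without the treated HCCLM3 library, and ZEB1 at 0.06 without the HCCLM3 control; against MHCC97H, ZEB1 was at -0.07 without the treated MHCC97H library and -0.14 without the treated HCCLM3 library. With a line or library left out, the values farthest on the other side of 0 were 0.29 for ZEB1 (without MHCC97H) and -0.04 for ZEB2 (without HCCLM3) for TGF-β1, -0.12 for SNAI2 and -0.55 for ZEB1 in HCCLM3 against MHCC97L, and 0.46 for ZEB1 in HCCLM3 against MHCC97H. The cause was not tested. DESeq2 gave CNN1 no adjusted p. Other scalings, no filter and limma-voom left the count of members called unchanged in all 4 comparisons. Depth limits TWIST1, OVOL1, GRHL2 and ESRP1, which had under 8 counts in each library.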
